A study of Mus musculus with 14 samples.

Results

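The Hedgehog pathway genes described here were 8 genes chosen by their role: the ligands Shh, Ihh and Dhh, the receptor Ptch1, the ligand-binding inhibitor Hhip, and the transcription factors Gli1, Gli2 and Gli3. All 8 were found by symbol among 21631 protein-coding genes, and their called ChIP-seq peaks were measured over each gene and the 10 kb on either side of it. The cells were mouse cells that the labels call PDGF Neural Stem Cells and the design text calls mouse DIPG cells (a childhood brainstem glioma), and they expressed histone H3.3 that was either wild type (H3WT) or carried K27M, a methionine in place of the lysine that is methylated. H3K27me3, the repressive mark written by Polycomb repressive complex PRC2, was mapped in 8 libraries, 2 each of H3WT and K27M cells kept for 12 days in DMSO, the solvent control, or in 3 µM EPZ6438 (EPZ), an inhibitor of the PRC2 enzyme Ezh2. Suz12, a subunit of PRC2, and Ring1b, which ubiquitinates histone H2A within PRC1, were profiled only in DMSO, with 1 library per genotype. All groups were grown in the same neural stem cell medium with epidermal and basic fibroblast growth factors. Which cells the line came from, how the PDGF and H3.3 genes were driven, whether a line was 1 clone, and whether the libraries of a group were separate cultures is not given in the sources used here, so every p below reflects variation among these libraries alone, and that variation may be technical.

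Hedgehog ligands are secreted proteins that bind Ptch1, a membrane protein that otherwise holds the signal transducer Smo inactive. Released Smo acts at the primary cilium to turn Gli2 and Gli3 from repressors or silent forms into activators, while Gli1 acts mainly as an activator that amplifies the response. Gli1, Ptch1 and Hhip are themselves transcriptional targets of the pathway, the latter pair as negative feedback, and the pathway patterns the ventral neural tube and sustains neural progenitors. H3K27me3 commonly covers developmental ligand genes in cells that do not use them, but peak lists carry no expression, and none was measured here.

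A gene was counted as marked in a group when a peak overlapped its window in both libraries. The values below are the kilobases of that window lying under called peaks. The deposited lists gave positions without peak heights, and read numbers are not given in the sources used here, so a longer covered length can come with a deeper library. The libraries differed widely: H3WT DMSO replicate 1 held 13358 peaks and replicate 2 held 59899, the K27M DMSO libraries held 2351 and 17980, and the 4 EPZ libraries held 201 to 340. In both genotypes the second DMSO library therefore had several times more peaks than the first. The share of the genotype or drug differences that goes with library depth was not tested. The windows also differ in length, from 26.4 kb at Ihh to 286.3 kb at Gli3, with a median of 61.0 kb for the 8 genes against 37.3 kb for all protein-coding genes, and a longer window has more room for a peak. H3K27me3 lay in both H3WT DMSO libraries over 1 of 10 neural stem cell markers (Prom1, while Sox2 and Pax6 had no peak in any library), over 2 of 5 neuronal, 2 of 5 oligodendrocyte and 2 of 5 fibroblast and pericyte markers, and over 0 of 5 microglial and 0 of 5 endothelial markers. With 21.4% of all genes marked by the same rule, lists this short show no contrast between cell types.

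The bases just before the gene interval are shown for 4 of the genes because their starts carried different peaks. At Dhh and Hhip the start site (98898540 and 80058008) lies inside the interval, so the bases directly before that site are not printed. The Ihh start held the one H3K27me3 peak of the 8 genes that was still called under EPZ, the Dhh start had narrow peaks in DMSO, the Gli3 start had Ring1b peaks without H3K27me3, and the Hhip start had no peak of any kind. Sequences are from the RefSeq promoter table of GRCm38.p6, whose chromosomes are those of mm10, read 5′ to 3′ along the gene's strand, with every CpG dinucleotide in capitals. The table held 6 of the 8 genes, and Shh and Gli1 were not among them. The Ihh stretch is chr1:74951673-74951922 on the minus strand, the Dhh stretch chr15:98898563-98898790 on the minus strand, the Hhip stretch chr8:80058061-80058258 on the minus strand and the Gli3 stretch chr13:15463473-15463722 on the plus strand.
Ihh: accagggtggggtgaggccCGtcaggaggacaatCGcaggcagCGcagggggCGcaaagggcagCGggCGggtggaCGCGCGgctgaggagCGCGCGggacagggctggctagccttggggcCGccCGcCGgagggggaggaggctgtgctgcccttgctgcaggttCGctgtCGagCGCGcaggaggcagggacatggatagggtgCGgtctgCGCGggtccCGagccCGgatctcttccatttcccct
Dhh: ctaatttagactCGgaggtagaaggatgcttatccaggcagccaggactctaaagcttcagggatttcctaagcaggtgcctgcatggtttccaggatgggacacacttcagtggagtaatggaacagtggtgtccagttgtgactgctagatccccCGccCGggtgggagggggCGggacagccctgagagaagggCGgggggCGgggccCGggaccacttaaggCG
Hhip: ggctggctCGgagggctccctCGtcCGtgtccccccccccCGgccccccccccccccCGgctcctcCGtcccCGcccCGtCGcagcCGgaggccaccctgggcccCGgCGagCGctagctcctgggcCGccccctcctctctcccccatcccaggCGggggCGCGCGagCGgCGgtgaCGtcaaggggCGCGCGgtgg
Gli3: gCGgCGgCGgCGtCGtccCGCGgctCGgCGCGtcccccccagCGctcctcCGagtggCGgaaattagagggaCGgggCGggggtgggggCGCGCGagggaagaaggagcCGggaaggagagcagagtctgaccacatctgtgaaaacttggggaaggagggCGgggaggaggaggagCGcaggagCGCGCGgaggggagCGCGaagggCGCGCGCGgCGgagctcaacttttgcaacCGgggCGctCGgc

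In the full 300-base promoter windows (250 bases before the start site and 50 after it), Ptch1 held 47 CpG, Gli3 39, Ihh and Hhip 30 each, Gli2 28 and Dhh 12. Over 21045 promoters of 17274 genes the median was 13, so 5 of the 6 promoters were CpG-rich and Dhh lay near the middle. Fewer CpG than Ptch1 were found in 98.1% of promoters, fewer than Gli3 in 94.1%, fewer than Ihh or Hhip in 84.4%, fewer than Gli2 in 81% and fewer than Dhh in 46.7%. Ihh and Hhip had equal CpG counts, with 72.7% and 73.7% GC, while Ihh was under a peak of H3K27me3 in every DMSO library and Hhip in none. The Gli recognition motif GACCACCCA, searched on both strands (reverse complement TGGGTGGTC), was in none of the 6 windows and in 38 promoters of the table (0.18%). That says only that these exact letters do not occur in these windows.

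H3K27me3 marked 6 of the 8 genes in H3WT cells in DMSO: all 3 ligands and all 3 Gli factors. Across protein-coding genes 21.4% were marked by the same rule. The receptor Ptch1 and the inhibitor Hhip had no H3K27me3, Suz12 or Ring1b peak in their windows in any of the 12 libraries. In K27M cells in DMSO, 4 of the 8 genes were marked (Shh, Ihh, Gli1 and Gli3), against 7.06% of all genes. Under EPZ, Ihh alone of the 8 was marked in H3WT cells, where 0.985% of all genes were, and 0 of the 8 were marked in K27M cells, where 0.74% of all genes were. Within 1 kb of the gene start (of either gene end for Shh and Gli1), 4 of the 8 were marked in H3WT DMSO cells (Shh, Ihh, Dhh and Gli1), against 9.8% of all genes.

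**Figure D1:**
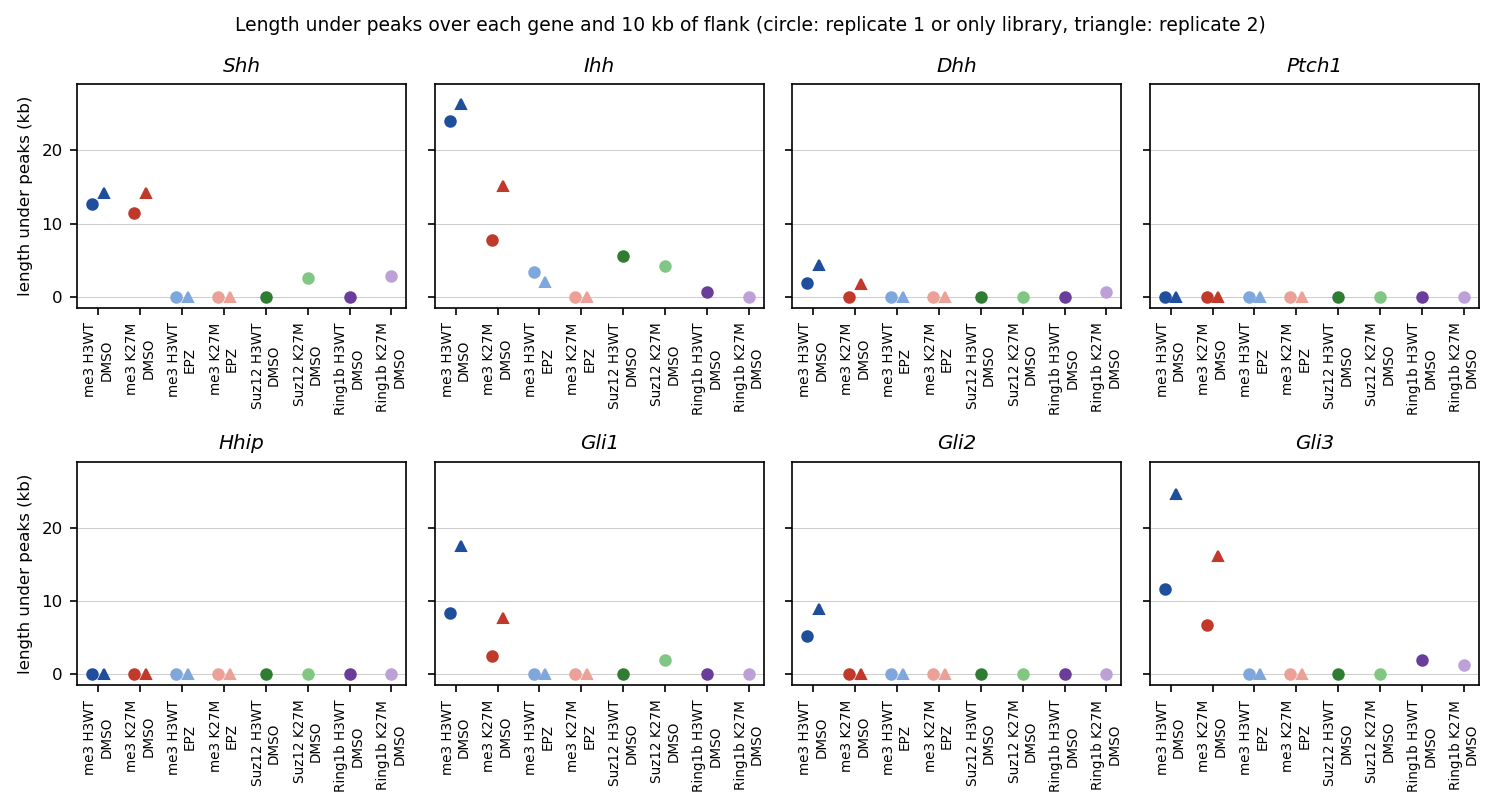
Length under called peaks (kb, vertical axis) over each of the 8 genes and its 10 kb flanks, 1 point per library, by antibody (me3 stands for H3K27me3), genotype and treatment. Ihh reached 24.0 and 26.4 kb in H3WT DMSO cells and kept 3.42 and 2.0 kb under EPZ, Shh was about as high in K27M as in H3WT cells, and Ptch1 and Hhip were at 0 throughout.

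Shh, the ligand that patterns the ventral neural tube, lies at chr5:28456840-28467101 and was covered to a similar extent in both genotypes. Its window had 12.7 and 14.2 kb under H3K27me3 in the H3WT DMSO libraries and 11.5 and 14.2 kb in the K27M DMSO libraries. The groups overlapped, with a mean for H3WT of 13.4 ± 1.05 kb and for K27M of 12.8 ± 1.91 kb (SD, n = 2 each). The peak calls were split differently. H3WT cells had 4 and 3 separate peaks, of which the widest were 4.84 and 5.09 kb. K27M replicate 1 had a single peak of 11.5 kb and replicate 2 a peak of 12.7 kb with a second of 1.49 kb. In H3WT replicate 1 the peaks at 28457054-28461298, 28462091-28464561 and 28464618-28469454 nearly touched, over much the same stretch as the long K27M peaks. H3WT replicate 2 had a wider break, from 28461844 to 28464592. Whether the layout follows from how calls were split was not tested. Inside the gene interval itself H3K27me3 covered 9.2 and 7.52 kb in H3WT and 9.86 and 10.3 kb in K27M cells, so that both K27M libraries were above both H3WT libraries there. That was so for 0.0878% of protein-coding genes over their intervals, and this observation at Shh was picked out after its values were seen. With the flanks included, K27M was above H3WT at 0 of the 8 genes and at 0.129% of all genes. Both shares are over all genes, though only a gene with a peak in both K27M libraries could be called. With the flanks that held for 1527 genes, of which 28 were called, so both shares are too low a base.

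Under EPZ the Shh window was at 0 in all 4 libraries, and the nearest H3K27me3 peak lay 1001.1 to 1002.4 kb away. Suz12 and Ring1b were called at Shh in the K27M library only. The Suz12 peak, of 2.62 kb, ran from 28465034 to 28467651, and the Ring1b peak, of 2.91 kb, ran from 28464464 to 28467373. Both covered the gene end with the higher coordinate, where the long noncoding RNA gene 9530036O11Rik also lies under the same peaks, and both lay wholly (100.0%) within the H3K27me3 peaks of the K27M libraries. In H3WT cells the nearest Suz12 peak was 1000.7 kb away and the nearest Ring1b peak 243.6 kb away.

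Ihh, the ligand known from cartilage and gut, lies at chr1:74945315-74951672 on the minus strand and had the highest covered share of its window among the 8 genes in both H3WT DMSO libraries. H3K27me3 covered 24.0 and 26.4 kb of its window in H3WT DMSO cells, which is 91.1% and 100.0% of the window. In K27M DMSO cells it covered 7.77 and 15.1 kb (29.5% and 57.2%). The 2 genotypes did not overlap, at 25.2 ± 1.67 kb against 11.4 ± 5.17 kb (SD, n = 2 each). In H3WT replicate 2 a single peak of 37.5 kb ran over Ihh and into its neighbour Cfap65, and in replicate 1 a peak of 16.7 kb covered the whole gene beside 2 further peaks of 8.41 and 3.38 kb downstream. In K27M cells the peak at the gene was 7.77 and 13.2 kb wide. It still included the start but reached only 3.49 and 4.64 kb into the gene, short of its far end. All K27M coverage at Ihh (100.0% in each library) lay inside the H3WT peaks of the same replicate number. In replicate 2 it could not be otherwise, since H3WT peaks filled the window. In replicate 1 they covered 91.1% of it and left little room elsewhere.

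Ihh was also the member with H3K27me3 under EPZ and with Suz12 in both genotypes. H3WT EPZ cells had 3.42 and 2.0 kb under peaks (2.71 ± 1.01 kb, SD, n = 2) and K27M EPZ cells 0 and 0 kb. Both H3WT EPZ peaks covered the start site, spanning 74949170-74952587 and 74949721-74951716, and both lay wholly within the Suz12 peak of H3WT DMSO cells at 74948571-74954117. Suz12 covered 5.55 kb in H3WT cells as 1 peak and 4.16 kb in K27M cells as 2 peaks, at 74949632-74951722 and 74951951-74954014. The short gap between these 2 peaks overlapped part of the Ihh stretch printed above, whose bases nearest the start lay under the first peak. Ring1b was called over 0.68 kb of the window's downstream edge in H3WT cells, at Cfap65 and not at Ihh, and over 0 kb in K27M cells. In the K27M EPZ libraries the nearest H3K27me3 peaks were 3237.4 and 3218.6 kb from Ihh.

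Dhh, the ligand of Schwann and Sertoli cells, lies at chr15:98881615-98898562 on the minus strand and had narrow peaks at its start. H3K27me3 covered 1.86 and 4.38 kb in H3WT DMSO cells, 0 and 1.75 kb in K27M DMSO cells and 0 kb in all EPZ libraries. The genotypes did not overlap in DMSO, but the K27M value of replicate 2 (1.75 kb) was close to the H3WT value of replicate 1 (1.86 kb). The peaks over the start site were almost the same in the 3 libraries that had one, at 98896782-98898636 and 98896421-98898925 in H3WT and 98896895-98898642 in K27M cells. Suz12 was not called in the window, and the one Ring1b peak, over 0.74 kb of the flank in K27M cells, lay in the neighbouring gene Kmt2d.

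**Figure D2:**
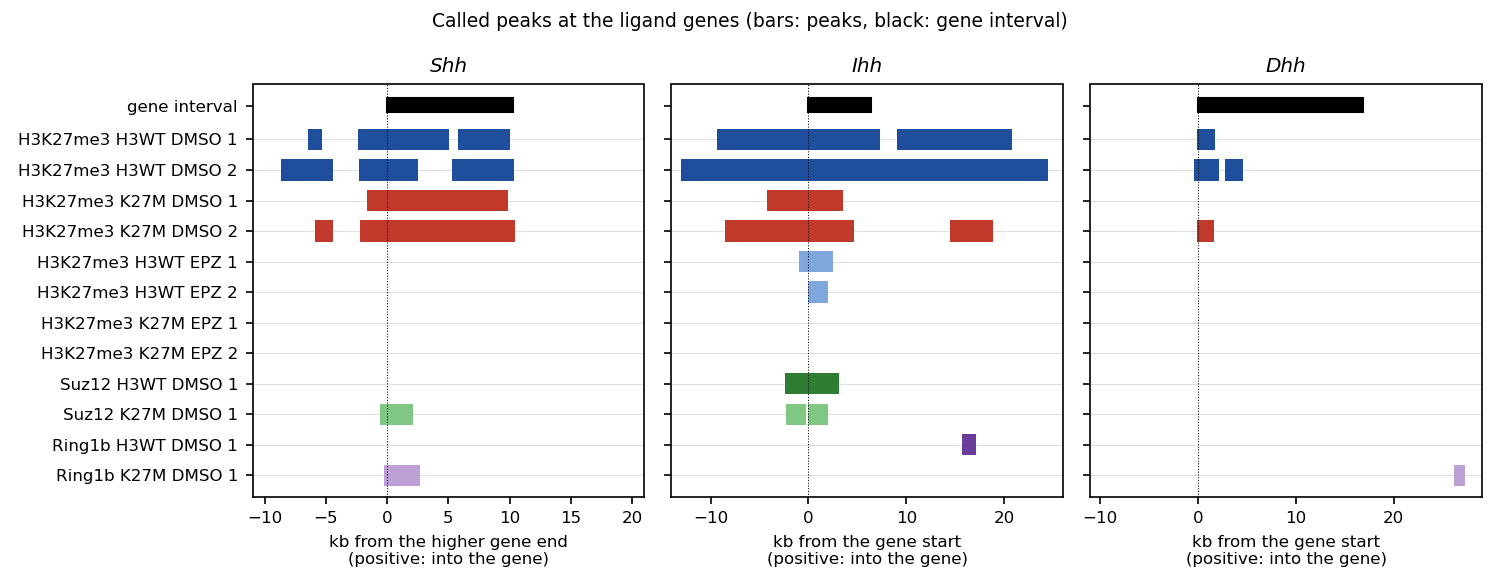
Called peaks (bars) at Shh, Ihh and Dhh in each of the 12 libraries, drawn against distance in kb from the gene start, or from the gene end with the higher coordinate for Shh, with positive values running into the gene. Shh has one long peak in K27M replicate 1 where H3WT cells have several shorter ones, and at Ihh the H3WT EPZ and Suz12 peaks sit on the start.

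Ptch1, the Hedgehog receptor at chr13:63508328-63573460, and Hhip, which binds and sequesters the ligands, at chr8:79965850-80058060, had 0 kb under peaks in all 12 libraries. The nearest H3K27me3 peaks to Ptch1 were 170.8 and 17.5 kb away in H3WT DMSO cells and 172.0 and 149.0 kb away in K27M DMSO cells. Those nearest to Hhip were 551.7 and 64.5 kb away in H3WT and 1521.4 and 427.4 kb away in K27M cells. Both genes were left out of the tests because they had no peak.

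Gli1, the activator among the Gli factors, lies at chr10:127329882-127341579. Its window had 8.42 and 17.5 kb under H3K27me3 in H3WT DMSO cells, 2.45 and 7.63 kb in K27M DMSO cells and 0 kb in all EPZ libraries. The genotypes did not overlap in DMSO (12.9 ± 6.39 against 5.04 ± 3.66 kb, SD, n = 2 each), although 7.63 kb in K27M replicate 2 came close to 8.42 kb in H3WT replicate 1. A substantial part of the coverage lay on the neighbouring gene Arhgap9, where the peaks were 5.07 and 11.4 kb wide in H3WT and 2.45 and 5.78 kb wide in K27M cells. Within the Gli1 interval alone, H3K27me3 covered 2.98 and 8.61 kb in H3WT cells and 0 and 1.92 kb in K27M cells. The gene end with the higher coordinate carried a peak of 2.21 and 2.76 kb in H3WT cells and of 1.85 kb in K27M replicate 2, and none in K27M replicate 1. Suz12 was called there in K27M cells only (1.98 kb), of which 92.3% lay inside the H3K27me3 peaks of K27M replicate 2 and 0.0% inside those of replicate 1. Ring1b was not called in the Gli1 window in either genotype.

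Gli2, the main activator of the response, at chr1:118834061-119054405 on the minus strand, was the member with H3K27me3 in H3WT cells and in neither K27M library. Its window had 5.21 and 8.87 kb under peaks in H3WT DMSO cells, 0 and 0 kb in K27M DMSO cells and 0 kb under EPZ. These were small parts of a 240.3 kb window. Both H3WT libraries had peaks 67.6 to 75.8 kb inside the gene and upstream of it, the latter from -10.2 to -8.19 kb relative to the start site in replicate 1 and from -13.5 to -7.03 kb in replicate 2. Replicate 2 had a further peak 0.74 to 1.92 kb inside the gene, and no peak covered the start site itself. The nearest H3K27me3 peaks in K27M DMSO cells were 1147.3 and 205.2 kb away, and neither Suz12 nor Ring1b was called in the window.

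Gli3, the main repressor among the Gli factors, at chr13:15463723-15730026 on the plus strand, had its H3K27me3 deep inside the gene and its Ring1b at the start. H3K27me3 covered 11.6 and 24.6 kb in H3WT DMSO cells and 6.74 and 16.1 kb in K27M DMSO cells. The groups overlapped, since K27M replicate 2 lay above H3WT replicate 1 (18.1 ± 9.22 against 11.4 ± 6.6 kb, SD, n = 2 each). Each K27M library was nevertheless below the H3WT library of the same number. All 4 DMSO libraries had the same internal domain, which ran from 154.5 to 166.4 kb downstream of the start in H3WT replicate 1, from 151.2 to 171.5 kb in the widest peak of H3WT replicate 2, from 157.5 to 165.7 kb in K27M replicate 1 and from 153.7 to 170.1 kb in K27M replicate 2. H3WT replicate 2 had 2 further peaks, of 2.46 kb just before the domain and of 3.22 kb across the edge of the downstream flank. All K27M coverage (100.0%) lay inside the H3WT peaks of the same replicate number, and no EPZ library had a peak.

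The Gli3 start had no H3K27me3 or Suz12 peak. Ring1b was called over it in both genotypes, at 15462964-15464885 in H3WT cells (1.92 kb) and at 15463617-15464848 in K27M cells (1.23 kb), and 0.0% of either peak overlapped H3K27me3. The long noncoding RNA gene Gm6556 lies under the same Ring1b peaks. The H3WT peak spans the whole printed Gli3 stretch, and the K27M peak begins within it.

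**Figure D3:**
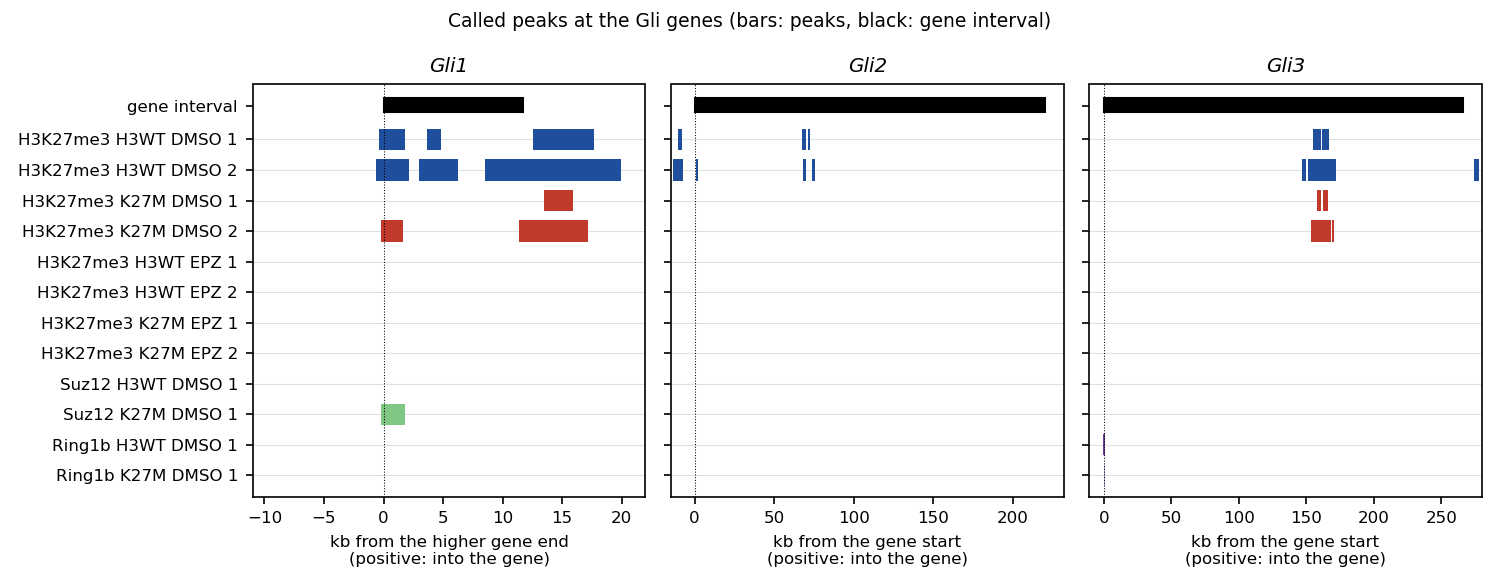
Called peaks (bars) at Gli1, Gli2 and Gli3 in each of the 12 libraries, drawn against distance in kb from the gene start, or from the gene end with the higher coordinate for Gli1, with positive values running into the gene and a different scale for each gene. The Gli3 domain sits at the same place in all 4 DMSO libraries, far from the narrow Ring1b peaks at 0 kb, and Gli2 has H3K27me3 in H3WT cells only.

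The first comparison was EPZ against DMSO, 4 libraries against 4 over both genotypes, which asks how far H3K27me3 at these genes depended on Ezh2 activity. The 6 genes with any peak had less coverage under EPZ on average. For 4 of the 8 (Shh, Ihh, Gli1 and Gli3) every EPZ library had less coverage than every DMSO library, against 6.89% of all genes. Only a gene with a peak in all 4 DMSO libraries could meet this rule, and these 4 were the members that had one. Of the 1515 genes with such peaks 1491 met it. The count therefore restates marking in DMSO and is not a result about the members. The differences of means (EPZ minus DMSO) were -13.1 kb at Shh, -16.9 kb at Ihh, -8.99 kb at Gli1 and -14.8 kb at Gli3. Each had a two-sided exact permutation p of 0.0286, the smallest that 70 relabellings allow, and a Benjamini-Hochberg adjusted p of 0.187 over the 9749 genes tested. A p this small needs the same separation of the groups as the rule above, so it adds nothing to that count. Dhh (-2.0 kb, exact permutation p = 0.143, adjusted p = 0.382) and Gli2 (-3.52 kb, exact permutation p = 0.429, adjusted p = 0.745) had DMSO libraries at 0, so the groups overlapped. Of all 9749 genes, 1491 had an exact permutation p under 0.05 and 0 passed after adjustment, so none of the 8 genes passed. Over the gene intervals alone, 3 genes lay below DMSO in every EPZ library (Shh, Ihh and Gli3), since Gli1 itself had no peak in K27M DMSO replicate 1. Without K27M DMSO replicate 1, the Dhh groups no longer overlapped either (-2.66 kb, exact permutation p = 0.0286, adjusted p = 0.0772).

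The second comparison was K27M against H3WT in DMSO, which asks which Hedgehog genes kept the mark in cells with the mutant histone. Of the 6 genes marked in H3WT cells, 4 had a peak in both K27M libraries (Shh, Ihh, Gli1 and Gli3), against 32.7% of the 4629 genes marked in H3WT cells. Over the gene intervals alone it was 3 (Shh, Ihh and Gli3), because the Gli1 peak of K27M replicate 1 lay on Arhgap9. Gli2 had a peak in neither, against 21.1% of those genes, and Dhh had one in replicate 2 only. Coverage was below H3WT in both K27M libraries at 4 of the 8 genes (Ihh, Dhh, Gli1 and Gli2), against 11.2% of all genes. Only a gene with a peak in both H3WT libraries could be called, which held for 6 of the 8 and for 4629 of all genes. Of those 4629 genes 2418 were called, so 11.2% is too low a base for the members. The differences of means (K27M minus H3WT) were -13.8 kb at Ihh, -7.9 kb at Gli1, -7.04 kb at Gli2, -6.72 kb at Gli3, -2.24 kb at Dhh and -0.6 kb at Shh. With 2 libraries against 2 the smallest exact permutation p is 0.333, which Ihh, Dhh, Gli1 and Gli2 had, while Gli3 had 0.667 and Shh 1. All adjusted p were 1, and this design could not reach 0.05. Without replicate 1 the count below H3WT was 5, with Gli3 added, and without replicate 2 it was 6, with Gli3 and Shh added, each from 1 library per genotype.

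Because replicate 2 had many more peaks than replicate 1 in both genotypes, K27M coverage was also read as a percentage of H3WT coverage in the library of the same number. This ratio compares lengths and does not say that the same bases were covered. It was 90.5% in replicate 1 and 100.0% in replicate 2 at Shh, higher than at 93.0% and 96.3% of the 4629 H3WT-marked genes. Of the K27M coverage at Shh, 92.6% and 79.6% lay inside the H3WT peaks of the same number, so part of it was elsewhere in the window. The ratio was 58.0% and 65.2% at Gli3, 32.4% and 57.2% at Ihh, 0% and 39.9% at Dhh and 0% in both at Gli2. It was 29.1% and 43.7% at Gli1, where the K27M peak of replicate 1 lay on Arhgap9, 1.8 kb outside Gli1. The median over the H3WT-marked genes was 0.0% in replicate 1 and 38.5% in replicate 2. Shh, Gli3 and Ihh were above that median in both pairs of libraries, as was the Gli1 window through Arhgap9, and Gli2 was not above it in either. In replicate 1 this only says that a K27M peak was present, as at 32.7% of the H3WT-marked genes. In replicate 2 the ratio was higher than at 72.0% of those genes for Gli3 and at 65.7% for Ihh. For Gli1 and Dhh it was higher than at 54.2% and 51.1%, near the middle.

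With both treatments combined and genotype relabelled within each, the exact permutation p was 0.0556 at Ihh (a difference of -8.23 kb, adjusted p = 1), the smallest that 36 relabellings allow. It was 0.333 at Dhh, Gli1 and Gli2, 0.667 at Gli3 and 1 at Shh. The drug effect itself was compared between genotypes in the same way. At Ihh it was 11.1 kb smaller in K27M than in H3WT cells (exact permutation p = 0.333), and at Shh 0.6 kb smaller (exact permutation p = 1). The smallest p this test allows is 0.0556, so it could not pass 0.05, and at every tested gene but Ihh both EPZ groups were at 0, so the difference there only restates the genotype difference in DMSO. At Ihh the K27M EPZ group was also at 0, so the drug effect in K27M cells could not exceed their DMSO mean of 11.4 kb. The Ihh value therefore mostly restates the DMSO difference of -13.8 kb as well. Over the 8 genes the median covered length was 9.99 kb in H3WT DMSO and 2.96 kb in K27M DMSO cells and 0 kb in both EPZ groups. The median over the genes marked in H3WT cells was 8.15 and 2.17 kb in DMSO and 0 kb under EPZ, and over all genes it was 0 kb in each group.

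Suz12 and Ring1b had no replicates, so their values were set side by side without a test. Suz12 was called at 1 of the 8 genes in H3WT cells (Ihh), where 2.3% of all genes had a peak, and at 3 in K27M cells (Shh, Ihh and Gli1), where 4.04% had one. Ring1b was called in the windows of 2 of the 8 genes in H3WT cells (Ihh and Gli3, 6.99% of all genes) and of 3 in K27M cells (Shh, Dhh and Gli3, 8.02% of all genes). The Ihh and Dhh entries lay in neighbouring genes. That left Gli3 with Ring1b at the gene in both genotypes and Shh in K27M cells only. Suz12 lists held 631 peaks in H3WT and 1252 in K27M cells, and Ring1b lists 1754 and 1808. Whether the Suz12 peaks seen in K27M cells alone go with that larger number of peaks was not tested.

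The other genes of the pathway were taken from lists by role, to be read against 21.4% of all genes marked in H3WT DMSO and 7.06% in K27M DMSO cells. Of 6 genes for ligand processing and release, 3 were marked in H3WT DMSO cells and the same number in K27M DMSO cells, namely the secreted release factors Scube1, Scube2 and Scube3. Scube2 had 8.09 and 49.9 kb under H3K27me3 in H3WT cells and 2.17 and 27.7 kb in K27M cells. Scube3 had 7.46 and 17.9 kb in H3WT and 2.66 and 10.3 kb in K27M cells, with Suz12 in K27M cells only (3.84 kb) and Ring1b in both genotypes (1.27 and 2.0 kb). The 3 Scube genes were at 0 in all EPZ libraries, and the acyltransferase Hhat and the exporter Disp1 had no peak in any of the 12 libraries.

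Of 8 membrane receptors and coreceptors, 3 were marked in H3WT DMSO cells (Gpc3, Cdon and Smo) and 1 in K27M DMSO cells (Cdon). Smo, the signal transducer, had 1.0 and 4.79 kb in H3WT cells and 0 and 0 kb in K27M cells. The coreceptor Cdon had 1.98 and 13.9 kb in H3WT and 5.22 and 17.8 kb in K27M cells, each K27M library above the H3WT library of the same number, with the groups overlapping. Gpc3, a glypican that competes for ligand, had 48.5 and 345.0 kb in H3WT and 0 and 161.8 kb in K27M cells, on chromosome X. The coreceptor Boc had no peak in any library.

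Of 21 intracellular and ciliary genes, 2 were marked in H3WT DMSO cells and 1 in K27M DMSO cells, and Sufu, the inhibitor that holds the Gli factors, had no peak in any of the 12 libraries. The kinase gene Ulk3, marked in H3WT cells, had 2.85 and 4.37 kb there and 0 and 2.24 kb in K27M cells. Over these 35 genes together, 8 were marked in H3WT and 5 in K27M DMSO cells. In either EPZ group 0 were, against 0.985% of all genes in H3WT and 0.74% in K27M cells. The H3WT share of these 35 genes was close to the 21.4% of all genes and is not a result about them.

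Under EPZ, the genes of these lists with peaks in both libraries of a genotype were all targets. Of 20 genes listed as transcriptional targets from textbook knowledge, 14 were marked in H3WT DMSO and 13 in K27M DMSO cells. With EPZ, 9 were marked in each genotype, against 0.985% of all genes in H3WT and 0.74% in K27M cells. The 9 were the developmental transcription factors Nkx6-1, Foxa2, Foxf1, Foxl1, Foxc2, Foxd1, Hand2 and Pax2 and the growth factor gene Igf2. Foxc2 and Foxl1 are close neighbours whose windows overlap, so they share peaks. Foxa2, the floor plate factor, had all 24.1 kb of its window under H3K27me3 in all 4 DMSO libraries, 15.9 and 15.4 kb in the H3WT EPZ libraries and 12.1 and 14.9 kb in the K27M EPZ libraries. Nkx6-1, a ventral progenitor factor, had 17.2 and 19.7 kb in H3WT DMSO, 13.8 and 15.1 kb in K27M DMSO, 12.7 and 12.3 kb in H3WT cells under EPZ, and 6.46 and 6.31 kb in K27M cells under EPZ. Hand2 was covered over its whole window of 23.5 kb in 7 of the 8 H3K27me3 libraries, and over 20.2 kb in K27M EPZ replicate 1.

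Suz12 was called at 10 of the 20 targets in H3WT cells (2.3% of all genes) and at 11 in K27M cells (4.04%), and Ring1b at 14 in each (6.99% and 8.02%). Pax2, whose coverage in H3WT DMSO cells was the longest in the list, had 83.3 and 105.7 kb there, 36.7 and 63.8 kb in K27M DMSO, 21.3 and 18.6 kb in H3WT cells under EPZ, and 7.99 and 13.2 kb in K27M cells under EPZ. Bmp4, which was marked in DMSO but not under EPZ, had 15.8 and 21.2 kb in H3WT and 5.11 and 10.4 kb in K27M cells. Olig2, which marks the oligodendrocyte lineage, and the cyclin genes Ccnd1 and Ccnd2 had no peak in any library. EPZ coverage lay below DMSO in all libraries at 12 of the 20 targets and at 5 of the 35 other pathway genes, against 6.89% of all genes. This rule needs a peak in all 4 DMSO libraries, which 13 of the targets and 5 of the others had. The counts therefore mostly restate marking in DMSO.

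**Figure D4:**
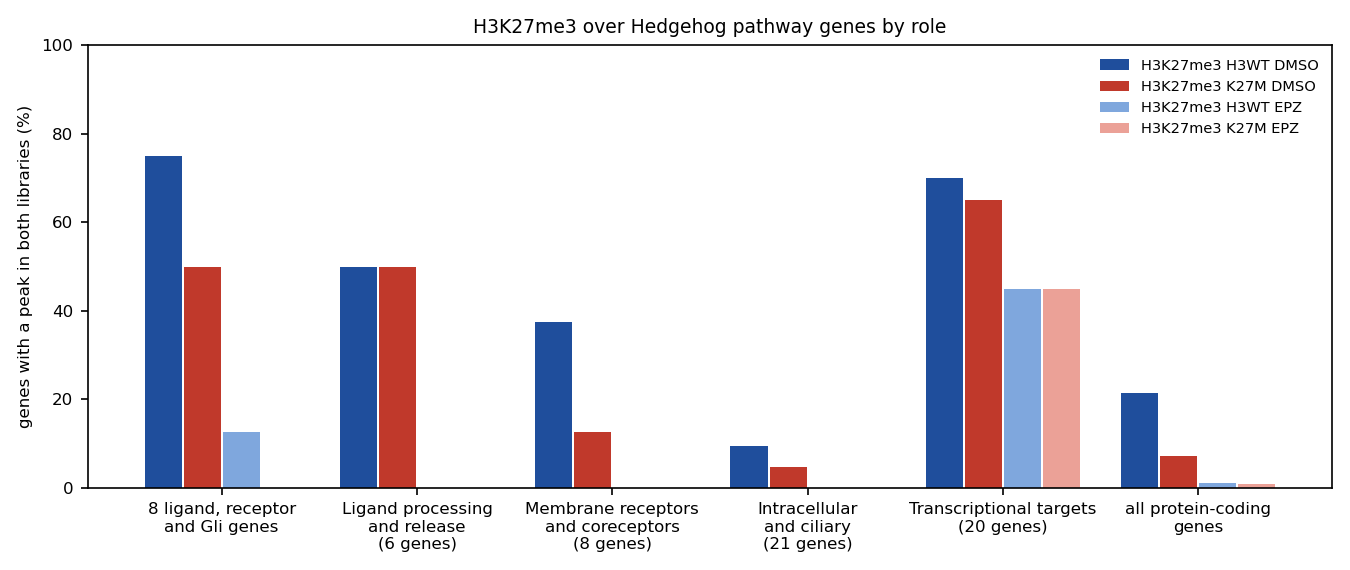
Share of genes (percent, vertical axis) with an H3K27me3 peak in both libraries of a group, for the 8 ligand, receptor and Gli genes, for 4 lists of other Hedgehog pathway genes by role and for all 21631 protein-coding genes, with 1 bar per genotype and treatment and no bar where the share is 0. Under EPZ, 9 of 20 targets had peaks in each genotype, while of the ligand, receptor and Gli genes Ihh alone did, in H3WT cells.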

How the data were processed

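H3K27me3, Suz12 and Ring1b ChIP-seq peak lists of 12 of 14 samples were used, and the 2 IgG samples were not analysed here. Reads were aligned with Bowtie 1.1.2 to mm10, per the submitters' processing notes. How peaks were called, against which control and from how many reads is not given in the sources used here, so depth is unknown and no counting interval is given. The authors deposited 1 list per library with peak positions, and the deposited score was 0 in all 100144 lines. The narrowest peak was 1001 bp, and 21 peaks that touched another were merged with it.

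Covered length was the part under peaks of the gene interval plus 10 kb on each side (RefSeq, GRCm38.p6, with 21631 genes that code for protein on chromosomes 1 to 19 and on X), and an overlap of 1 bp counted as a peak. Python 3.11.15, numpy 2.4.6 and pandas 2.3.3 were used. Differences were tested with two-sided exact permutation tests, adjusted by Benjamini-Hochberg over all genes with a peak. The code was tested on simulated data. Groups came from titles, genotypes and descriptions. Replicate numbers were not used to pair libraries in the main tests. Alternatives were other windows, a minimum peak width of 3 kb, a larger overlap, a log scale, a replicate block and leaving out replicates.

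Named genes were the 8 members, up to 4 marked genes per role list with the longest H3WT DMSO coverage, listed genes that both EPZ libraries of 1 genotype had peaks at, genes sharing a peak with a member, and the 2 genes most like each member in percent of window covered over the 12 libraries. Genes named as having no peak, and Bmp4, Prom1 and the other markers, were named after their values were seen. A few genes that the rule takes are not reported here. The members and lists were chosen with earlier results of these data known.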

Additional observations from a re-analysis of the deposited data

How the results depend on the processing

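The counts of genes were recomputed with other windows, wider peaks only, a larger overlap, and without each replicate. Of these alternatives to the counts, 67 stayed within 1.5 times and 11 did not. Within 1 kb of the gene start, 2 genes were marked in K27M DMSO cells (Shh and Ihh), 2 lay below DMSO under EPZ (Shh and Ihh), 1 lay below H3WT in K27M cells (Gli1) and 1 had Ring1b in H3WT cells (Gli3). With peaks of at least 3 kb only, 0 were marked in H3WT EPZ cells, 1 lay below H3WT in K27M cells (Ihh), and 0 had Suz12 in K27M cells or Ring1b in either genotype. With 5 kb flanks, and over the gene interval only, 1 gene had Ring1b in H3WT cells (Gli3), and over the gene interval Gli1 was also no longer marked in K27M DMSO cells or below DMSO in every EPZ library (3 genes each). Without either replicate, 6 genes stayed marked in H3WT DMSO and 4 to 5 in K27M DMSO cells, 4 to 5 lay below DMSO under EPZ, and 5 to 6 lay below H3WT in K27M cells, where Gli3 joined without replicate 1 and Gli3 and Shh without replicate 2. A replicate block gave 4 genes below DMSO under EPZ, the same ones, and 5 below H3WT in K27M cells, adding Gli3. Deviations of same-numbered libraries had a correlation of 0.83 between the genotypes in DMSO over 9749 genes. DMSO libraries of the same number thus deviated alike, and the main tests, which ignored the numbers, made no use of this. Replicate 2 had more peaks in both genotypes (59899 against 13358 in H3WT and 17980 against 2351 in K27M cells). How far the correlation goes with that was not tested, so it does not show that same-numbered libraries were paired. Between the genotypes under EPZ the correlation was -0.4, so EPZ libraries of the same number deviated in opposite directions. Comparisons of DMSO with EPZ libraries gave -0.02 to 0.03. Under EPZ the median over all genes was 0 kb, so few genes inform any comparison with EPZ libraries. EPZ minus DMSO kept its sign at the 6 genes on a log scale, with both other relabellings and without each library. Without any 1 EPZ library the exact permutation p rose from 0.0286 to 0.0571 at Ihh, Gli1 and Gli3, although their groups still did not overlap. At Shh it stayed at 0.0286. Leaving out 1 library gave -13.7 to -12.8 kb at Shh, -20.5 to -14.3 kb at Ihh, -2.66 to -1.2 kb at Dhh, -11.2 to -6.17 kb at Gli1, -4.7 to -1.74 kb at Gli2 and -17.4 to -11.5 kb at Gli3, where Dhh and Gli2 moved by over 1.5 times without H3WT DMSO replicate 2 (to -1.2 and -1.74 kb). Over these settings together, exact permutation tests gave adjusted p of 0.0772 to 0.668 at Shh, Ihh, Dhh, Gli1 and Gli3 and 0.249 to 0.87 at Gli2. Over all genes, 0 passed after adjustment in any setting, and 3606 had an exact permutation p under 0.05 without K27M DMSO replicate 1 against 1491 with all libraries and 522 to 539 without any 1 EPZ library. Relabelling within genotypes or within a replicate block allows too few relabellings (36 and 16) to reach 0.05, so it says nothing of these counts. Unknown read depth limits all covered lengths.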

Other observations

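Among all protein-coding genes outside the windows of the 8, the genes whose percent of window covered was most like each member's over the 12 libraries were found by the mean absolute difference. For Shh these were Smug1 (1.63 percentage points) and Helt (2.45 percentage points). Helt, a transcription factor of GABAergic neuron specification, had 38.4% and 50.3% of its window covered in H3WT DMSO, 40.8% and 49.6% in K27M DMSO cells and 0% in all EPZ libraries, with Suz12 over 22.2% and Ring1b over 12.9% in K27M cells and over 0% in H3WT cells. For Ihh the nearest were Cbfa2t3 (6.0 percentage points) and Bhlhe23 (6.48 percentage points). Bhlhe23 also kept H3K27me3 over 15.4% and 10.4% of its window in H3WT EPZ cells, with 7.4% and 0% in K27M EPZ cells. Ihh was therefore farther from its nearest genes than the other members were from theirs.

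For Gli1 the nearest genes were Nos2 (1.02 percentage points) and Lin28a (1.05 percentage points), and neither had a Suz12 peak, unlike Gli1 in K27M cells. Dhh, Gli2 and Gli3 had small covered shares, and many genes have such shares, so the differences were small: Tpm1 (0.24) for Dhh, Recql5 and Arl1 (0.05 each) for Gli2, and Smarcal1 (0.28) and Stra6l (0.29) for Gli3, all in percentage points.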
